A study of Homo sapiens with 8 samples.

Results

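The kallikrein-related peptidases of the squamous epithelium were followed by name in RNA-seq of Kyse510, an established human esophageal squamous cell carcinoma line. The members were KLK5, KLK6, KLK7, KLK8, KLK10, KLK11, KLK12, KLK13 and KLK14, which makes 9 of the 34164 genes listed in 2 tables of expression values. Each condition was 1 library. The inhibitor table held cells given vehicle, 7 µM SP2509 (an LSD1 inhibitor), 7 µM UNC0642 (a G9a inhibitor), or both for 2 days, and the dose in the combination was named without a value of its own. The knockdown table held cells carrying a doxycycline-inducible hairpin against LSD1 (shLSD1) or against G9a (shG9a), selected with puromycin for 14 days and sampled without doxycycline or after 2 days with it. LSD1 and G9a are enzymes that take methyl groups off or put them on histone H3. No library of a control hairpin with doxycycline was analysed here, so an effect of doxycycline itself cannot be told apart from that of the knockdown.

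Kallikreins are secreted serine proteases that are made as inactive precursors. In skin and esophagus they activate one another in a cascade, cut the corneodesmosomes that hold the outermost cells together, and are held in check by inhibitors such as LEKTI, the product of SPINK5. KLK5 is regarded as an initiator of this cascade because it can activate itself, KLK7 is its chymotrypsin-like partner, and KLK5, KLK6 and KLK14 can also cut the protease-activated receptor PAR2.

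Values were FPKM, fragments scaled to gene length and to the mapped reads of the library. The whole reads behind each FPKM value were recovered from the steps between low values, and the libraries held between 15662035 (vehicle) and 17889466 (UNC0642) reads. KDM1A, which encodes LSD1, stood at 26.0 FPKM without and 6.29 FPKM with doxycycline in the shLSD1 line. EHMT2, which encodes G9a, stood at 7.85 and 4.76 FPKM in the shG9a line. With both inhibitors EHMT2 stood at 5.38 FPKM against 11.1 FPKM in vehicle, and KDM1A at 32.0 against 40.7 FPKM. KDM1A stood at 26.4 FPKM without and 35.8 FPKM with doxycycline in the shG9a line. The squamous markers KRT5 (74.6 to 734 FPKM), TP63 (18.3 to 127 FPKM) and DSG3 (5.57 to 28.6 FPKM) were present in all 8 libraries, and the leukocyte markers PTPRC and CD68 were at or below 0.0522 FPKM. The fibroblast marker COL1A1 stood between 2.92 and 5.36 FPKM. In the combination library KRT5 stood at 163, TP63 at 18.3 and DSG3 at 9.63 FPKM, against 427, 79.1 and 28.6 FPKM in vehicle. KRT14 and KRT6A stood higher there (10.1 and 16.1 against 1.93 and 0.676 FPKM), and CDH1 was at 60.8 against 65.2 FPKM. With induced shLSD1 KRT5 stood at 74.6 against 188 FPKM and TP63 at 32.6 against 41.9 FPKM. DSG3 was at 16.6 against 14.7 FPKM there, and CDH1 at 78.7 against 84.0 FPKM. With SP2509 KRT5, TP63 and CDH1 stood higher than in vehicle, at 734, 127 and 122 FPKM, and DSG3 was at 26.9 FPKM. With induced shG9a KRT5 stood at 312 against 177 FPKM, TP63 at 31.8 against 40.5 FPKM and DSG3 at 5.57 against 14.1 FPKM. The part of these shifts in the kallikrein values was not tested.

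The 9 genes lie in one cluster on chromosome 19 (GRCh38), from 50943303 to 51084245, a stretch of 141 kb, and all 9 are read from the minus strand. From KLK5 on, their order is KLK6, KLK7, KLK8, KLK10, KLK11, KLK12, KLK13 and KLK14, and KLK9, which is no member, lies between KLK8 and KLK10. The gaps between neighbouring members ran from 1.05 kb, between KLK11 and KLK12, to 21.0 kb, between KLK12 and KLK13. The promoter windows of KLK5, KLK6 and KLK10 are shown because these 3 genes gave most of the reads and differed in direction between conditions. They are taken from RefSeq (GRCh38.p14), run 5′ to 3′ on the minus strand from 250 bases before to 50 bases after the annotated start, and lie at chr19:50952989-50953288, chr19:50969542-50969841 and chr19:51019812-51020111. Capitals mark the letters GGGCGG on either strand, the core of a GC box.
KLK5: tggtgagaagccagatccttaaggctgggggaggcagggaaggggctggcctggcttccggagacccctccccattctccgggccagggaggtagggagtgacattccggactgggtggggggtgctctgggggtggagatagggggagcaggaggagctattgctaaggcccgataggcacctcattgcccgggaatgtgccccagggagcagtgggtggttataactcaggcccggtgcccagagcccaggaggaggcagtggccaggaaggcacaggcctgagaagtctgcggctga
KLK6: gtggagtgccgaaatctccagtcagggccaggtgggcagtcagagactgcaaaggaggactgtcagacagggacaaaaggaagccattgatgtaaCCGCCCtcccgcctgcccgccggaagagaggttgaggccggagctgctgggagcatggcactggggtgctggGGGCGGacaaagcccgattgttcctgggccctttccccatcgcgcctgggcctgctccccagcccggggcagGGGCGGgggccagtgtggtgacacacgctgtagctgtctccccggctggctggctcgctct
KLK10: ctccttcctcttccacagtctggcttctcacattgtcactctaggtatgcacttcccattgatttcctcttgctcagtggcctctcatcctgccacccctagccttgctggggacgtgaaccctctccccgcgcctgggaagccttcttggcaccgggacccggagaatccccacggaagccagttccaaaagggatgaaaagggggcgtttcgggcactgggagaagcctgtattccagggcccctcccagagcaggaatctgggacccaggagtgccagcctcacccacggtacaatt

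RefSeq windows were found for 8 of the 9 members, 15 windows in all, and KLK8 had no entry. GGGCGG was present on either strand in 9 of these 15 windows, belonging to KLK6, KLK7, KLK11, KLK13 and KLK14, against 45.0% of all 35116 promoter windows. In the KLK6 window it stood 155, 83 and 11 bases before the start. Neither the KLK5 window nor either of the 2 KLK10 windows held these letters. TGACTCA, the letters bound by AP-1 factors, and its reverse complement TGAGTCA were in 0 of 15 windows, against 4.95% of all windows. TATAAA was also in 0 of 15, against 11.5%. Windows of KLK7, KLK10, KLK13 and KLK14 overlap others of the same gene, so the 15 windows are not separate stretches of sequence. Some GGGCGG sites of KLK7, KLK13 and KLK14 were therefore counted repeatedly among the 9 windows, and the counts of 0 rest in part on shared bases. The median GC content was 62.0% in the members' windows and 58.7% over all windows. A match in letters describes the window and does not show that a factor was bound there.

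Levels divided the family into 3 tiers. KLK5, KLK6 and KLK10 were at 1 FPKM or more in all 8 libraries and together held between 88.3% and 94.5% of the summed FPKM of the members. KLK8, KLK11 and KLK14 reached 1 FPKM in 1 library each. KLK7, KLK12 and KLK13 were below 1 FPKM throughout. Summed over the members, FPKM was 22.3 in vehicle, 15.5 with SP2509, 15.8 with UNC0642 and 43.5 with both. In the shLSD1 line the sum was 20.2 before and 34.1 after induction, and in the shG9a line 18.8 and 13.3. The summed level was thus lower than in the matched control with either inhibitor alone and with induced shG9a, and higher with both inhibitors and with induced shLSD1.

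**Figure D1:**
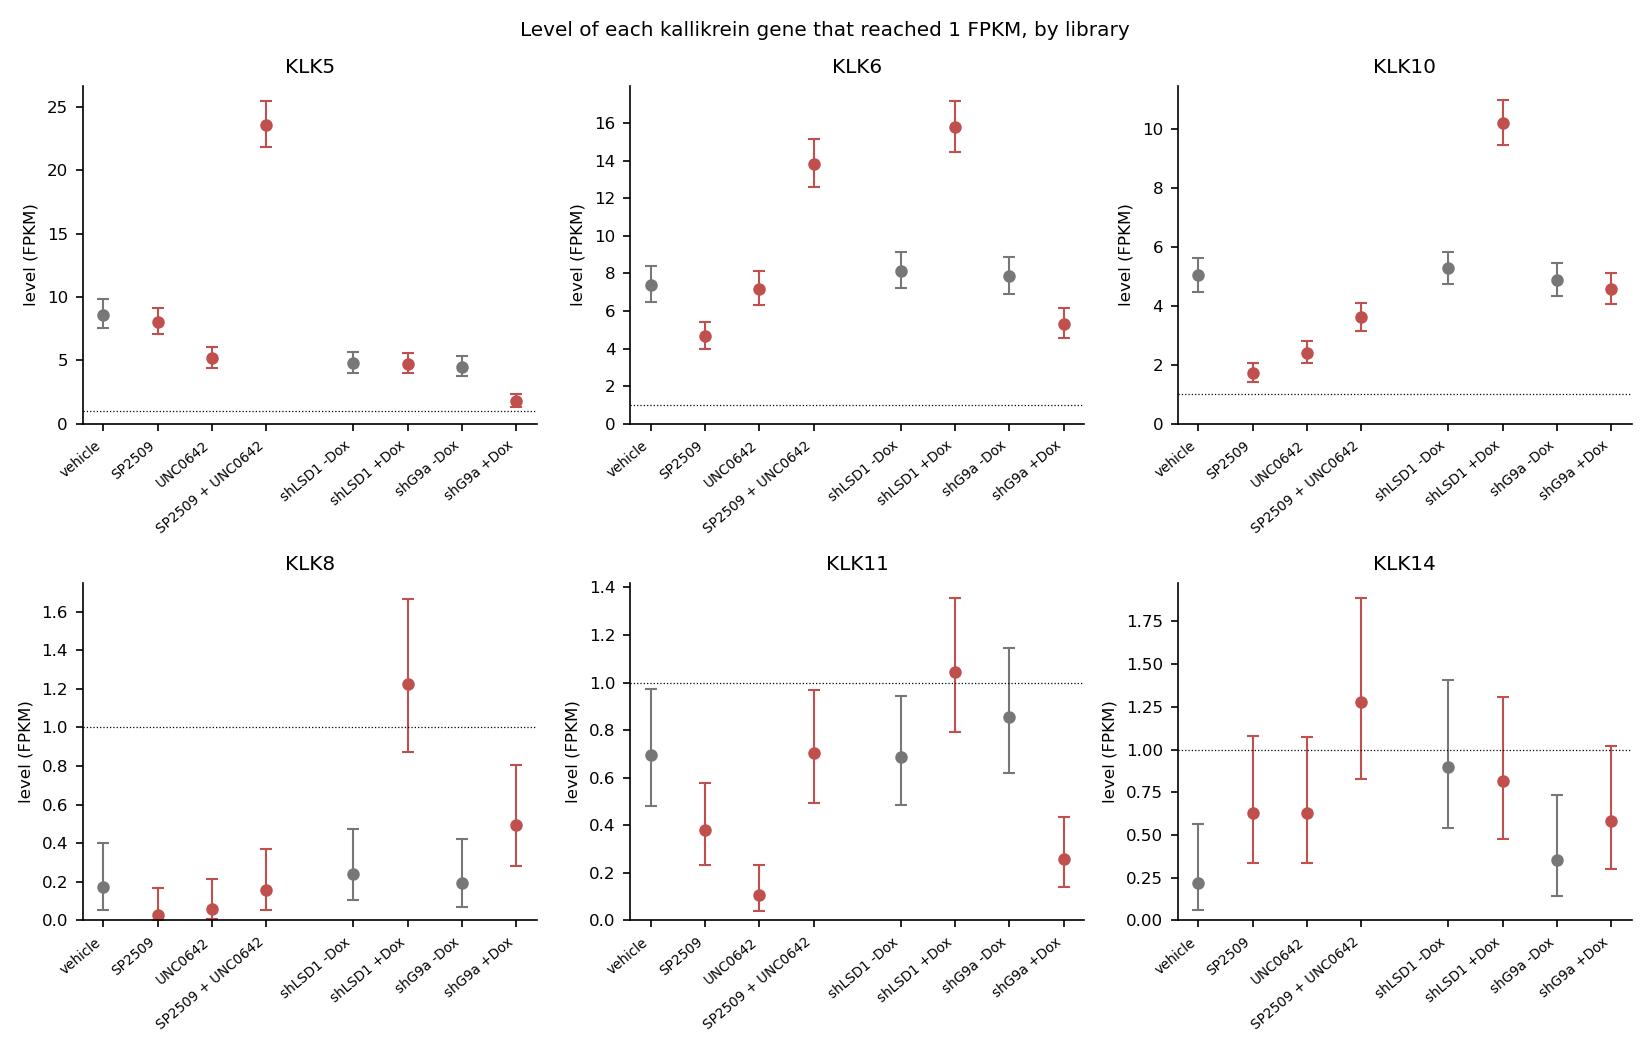
FPKM of the 6 members that reached 1 FPKM (dotted line) in each of the 8 libraries, controls in grey and treated libraries in red, with exact Poisson 95% intervals of the reads, which cover counting error only. KLK5 stands at 23.5 FPKM with both inhibitors, and KLK6 and KLK10 stand at 15.8 and 10.2 FPKM in the induced shLSD1 library.

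Each treated library was compared with its own control. A gene was tested where it had at least 1 FPKM in at least 1 of the 2 libraries, and was called higher or lower where the ratio of FPKM, each with a pseudocount of 1, was at least 1.3 in either direction and the reads differed at an unadjusted p under 0.05 in an exact binomial test (two-sided). This test compares 2 libraries and not 2 conditions, since there was no replicate, and every interval given here covers counting error only. Log2 fold changes carry the pseudocount, and read ratios (reads per library total, treated over control) do not. The 3 comparisons with vehicle share that library.

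KLK5, the trypsin-like initiator of the cascade, had 8.61 FPKM in vehicle, 8.05 with SP2509, 5.21 with UNC0642 and 23.5 with both, which were 223, 237, 154 and 657 reads. It stood highest with both inhibitors, lowest with UNC0642, and vehicle and SP2509 were neighbours whose intervals overlapped. Its log2 fold change was 1.35 with both inhibitors, with a read ratio of 2.73 (95% interval 2.34 to 3.20, exact binomial p = 1.29e-43). With UNC0642 alone it was -0.63, a ratio of 0.605 (0.489 to 0.746, exact binomial p = 1.41e-06), and the gene was called lower. With SP2509 alone the ratio was 0.935, with an interval from 0.775 to 1.13. The library with both inhibitors thus lay above that with either one, 2.92-fold above SP2509 (2.52 to 3.41) and 4.52-fold above UNC0642 (3.79 to 5.42).

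In the knockdown lines KLK5 had 4.77 FPKM without and 4.73 FPKM with doxycycline in the shLSD1 line (140 and 137 reads), and 4.5 and 1.82 FPKM in the shG9a line (123 and 52 reads). The induced shG9a library stood below the other three, which lay close together. Its ratio to the uninduced library was 0.404 (0.286 to 0.563), a log2 fold change of -0.97 that was called lower (exact binomial p = 1.34e-08). In the shLSD1 line the ratio was 0.992, with an interval of 0.778 to 1.27. KLK5 was therefore called lower with UNC0642 and with induced shG9a, the inhibitor and the knockdown of G9a, and was not called with SP2509 or induced shLSD1.

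KLK6, also called neurosin, is a trypsin-like kallikrein of skin and brain. It had 7.40 FPKM in vehicle, 4.66 with SP2509, 7.19 with UNC0642 and 13.8 with both, which were 229, 164, 254 and 461 reads. The combination was the highest and SP2509 the lowest, while vehicle and UNC0642 could not be told apart (ratio 0.971, interval 0.809 to 1.17). With both inhibitors the log2 fold change was 0.82 and the read ratio 1.87 (1.59 to 2.20, exact binomial p = 2.63e-15), called higher. With SP2509 it was -0.57, a ratio of 0.630 (0.512 to 0.773, exact binomial p = 6.27e-06), called lower. The combination library stood 2.96-fold above SP2509 (2.48 to 3.57) and 1.92-fold above UNC0642 (1.65 to 2.25).

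KLK6 is overlapped by the antisense genes AC011483.1 (1464 bases) and AC011483.2 (5019 bases) and by AC011483.3 on its own strand (585 bases). AC011483.1 stood at 1.44 FPKM at most, on 13 reads. The strand setting of the counting is not given in the sources used here. Reads of KLK6 and of these genes may therefore not have been told apart. The same holds for KLK5, which AC011483.2 overlaps by 2909 bases, with at most 2 reads in a library. In the shLSD1 line KLK6 stood at 8.12 FPKM without and 15.8 FPKM with doxycycline (285 and 546 reads), and in the shG9a line at 7.86 and 5.32 FPKM (257 and 182 reads). The uninduced libraries were close to each other, and the induced libraries lay on opposite sides of them. The log2 fold change was 0.88 with induced shLSD1 (ratio 1.94, interval 1.68 to 2.25, exact binomial p = 1.31e-20) and -0.49 with induced shG9a (ratio 0.676, interval 0.556 to 0.821, exact binomial p = 5.78e-05). Both passed the call, in opposite directions. SP2509 and induced shLSD1, the inhibitor and the knockdown of LSD1, also differed in direction for KLK6, and the doxycycline comparison shares no library with the SP2509 comparison.

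KLK10 is a kallikrein whose transcript is reduced in several cancers. It had 5.04 FPKM in vehicle, 1.73 with SP2509, 2.42 with UNC0642 and 3.61 with both (304, 119, 167 and 235 reads). Vehicle was the highest and SP2509 the lowest, and the read ratio of each neighbouring pair in this order had an interval that left out 1, the nearest to it being SP2509 over UNC0642 (0.716, interval 0.561 to 0.911). The read ratio to vehicle was 0.344 with SP2509 (0.276 to 0.427, exact binomial p = 2.24e-25), 0.481 with UNC0642 (0.396 to 0.583, exact binomial p = 9.32e-15) and 0.717 with both (0.602 to 0.853, exact binomial p = 0.000123). The log2 fold changes were -1.14, -0.82 and -0.39, and all 3 were called lower. The combination library stood 2.08-fold above SP2509 alone (1.66 to 2.62) and 1.49-fold above UNC0642 alone (1.22 to 1.83), as for KLK5 and KLK6, while still below vehicle.

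With knockdown, KLK10 stood at 5.28 FPKM without and 10.2 FPKM with doxycycline in the shLSD1 line (361 and 688 reads) and at 4.88 and 4.57 FPKM in the shG9a line (311 and 305 reads). One library of these 4, induced shLSD1, stood above the rest. Its read ratio was 1.93 (1.70 to 2.20, exact binomial p = 2.53e-25), a log2 fold change of 0.84 that was called higher. In the shG9a line the ratio was 0.937 with an interval of 0.797 to 1.10, and no call was made. KLK10 was thus lower with SP2509 and higher with induced shLSD1, as KLK6 was.

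KLK8, or neuropsin, was almost silent in the inhibitor table, with 0.171 FPKM in vehicle, 0.0301 with SP2509, 0.0599 with UNC0642 and 0.159 with both, resting on 5, 1, 2 and 5 reads. In the knockdown table it had 0.242 FPKM without and 1.23 FPKM with doxycycline in the shLSD1 line (8 and 40 reads), and 0.195 and 0.495 FPKM in the shG9a line (6 and 16 reads). Induced shLSD1 was the highest library of its table and the one above 1 FPKM. The read ratio there was 5.07 (2.34 to 12.5, exact binomial p = 1.71e-06), called higher with a log2 fold change of 0.84. KLK8 could be tested there only because the induced library passed the filter. In the shG9a line the ratio was 2.55 with an interval of 0.947 to 7.95, below the filter and untested for a call. The same-strand gene AC011473.4 overlaps KLK8 by 6694 bases and the antisense gene AC011483.1 by 6705 bases. AC011473.4 stood at 0.117 and 0.266 FPKM in the shLSD1 line, and AC011483.1 at 0.736 and 0.320 FPKM. As for KLK6, reads of KLK8 and of these 2 genes may not have been told apart.

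KLK11 is a trypsin-like kallikrein of glandular and stratified epithelia. It had 0.697 FPKM in vehicle, 0.379 with SP2509, 0.108 with UNC0642 and 0.704 with both (34, 21, 6 and 37 reads). Vehicle and the combination were alike within an interval of 0.617 to 1.66 for their ratio, and UNC0642 was the lowest. In the shLSD1 line it had 0.688 and 1.05 FPKM (38 and 57 reads), and in the shG9a line 0.855 and 0.260 FPKM (44 and 14 reads). KLK11 was tested in 1 comparison, induced shLSD1, where its ratio was 1.52 (0.992 to 2.36, exact binomial p = 0.0508) and no call was made. It was below the filter elsewhere, and the ratios there are descriptions. They were 0.154 (0.0530 to 0.372) with UNC0642 and 0.304 (0.154 to 0.565) with induced shG9a. The libraries of UNC0642 alone and of induced shG9a thus each held fewer KLK11 reads than their controls. The library with both inhibitors, which also had UNC0642, did not.

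KLK14, a potent trypsin-like activator of PAR2, had 0.220 FPKM in vehicle, 0.630 with SP2509, 0.627 with UNC0642 and 1.28 with both, on 4, 13, 13 and 25 reads. Vehicle was the lowest and the combination the highest. The read ratio with both inhibitors was 5.80 (2.00 to 22.9, exact binomial p = 0.000136), called higher with a log2 fold change of 0.90. KLK14 could be tested only because the combination library passed the filter. The combination was 2.03-fold above SP2509 with an interval of 0.999 to 4.32, and 2.04-fold above UNC0642 with an interval of 1.004 to 4.34. KLK14 was not tested in the knockdown lines, where it had 0.900 and 0.817 FPKM (shLSD1, 19 and 17 reads) and 0.356 and 0.583 FPKM (shG9a, 7 and 12 reads). Its uninduced libraries, 19 against 7 reads, were themselves apart by a ratio of 0.395 (shG9a over shLSD1, interval 0.140 to 0.982).

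The remaining members were close to silent. KLK7, the chymotrypsin-like partner of KLK5, had 0.105, 0, 0.184 and 0.292 FPKM in vehicle, SP2509, UNC0642 and the combination, and 0.185, 0.235, 0.0497 and 0.0949 FPKM in the uninduced and induced shLSD1 and shG9a libraries. These were between 0 and 6 reads, or up to double that, because a gene length of 1217 bases and its double would both give whole reads. The antisense gene AC011483.1 covers 7618 bases at KLK7, with up to 13 reads, so KLK7 reads are uncertain in the same way as those of KLK6. KLK13, abundant in healthy esophagus, had at most 0.115 FPKM and 4 reads in any library. KLK12 was listed in the inhibitor table alone, at 0 reads in 3 libraries and 3 reads (0.1 FPKM) with both inhibitors. A count of 0 was taken to allow up to 3 reads, and none of these 3 genes passed the filter for a test.

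**Figure D2:**
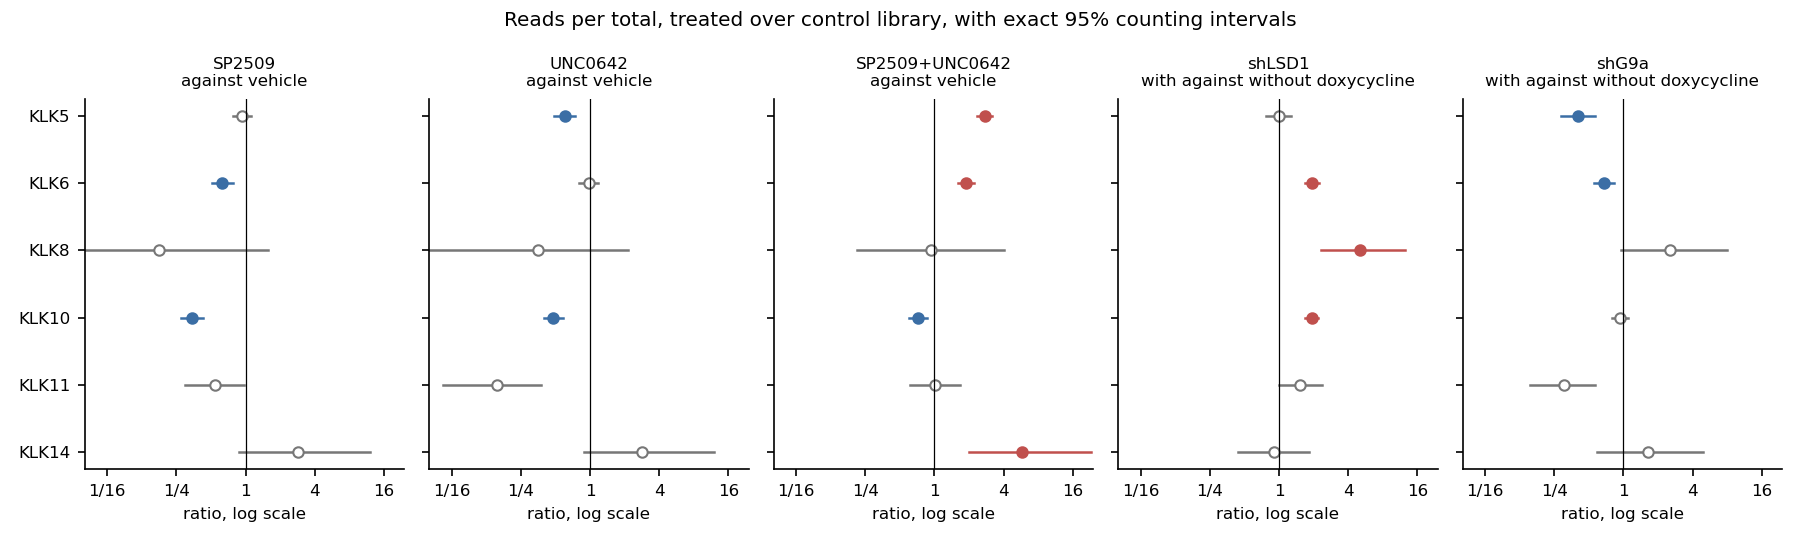
Read ratio of each member to its own control on a log axis, with exact 95% intervals that cover counting error only. Filled red and blue points were called higher and lower, open grey points were not called or not tested, and intervals of the least abundant genes run off the axis. KLK5 lies at 2.73 with both inhibitors and at 0.404 with induced shG9a.

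By comparison, 2 of the 3 members tested were called lower with SP2509 (KLK6 and KLK10) and 0 higher, where 37.5% of all 13342 genes tested were called lower and 18.2% higher. With UNC0642 2 of 3 were called lower (KLK5 and KLK10) and 0 higher, against 14.0% and 15.8% of 13244 genes. With both inhibitors 3 of 4 were called higher (KLK5, KLK6 and KLK14) and 1 lower (KLK10), against 29.0% and 29.1% of 13907 genes. In induced shLSD1 3 of 5 were called higher (KLK6, KLK8 and KLK10) and 0 lower, against 22.7% and 10.4% of 12970 genes. In induced shG9a 0 of 3 were called higher and 2 lower (KLK5 and KLK6), against 30.0% and 15.8% of 13080 genes. KLK14 with both inhibitors, and KLK8 and KLK11 with induced shLSD1, passed the filter through the treated library alone, so these counts describe the genes that were tested and not the family. The background was highest for lower calls with SP2509, at 37.5%, and lowest for lower calls with induced shLSD1, at 10.4%.

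The median log2 fold change of the members tested was -0.57 with SP2509, -0.63 with UNC0642, 0.86 with both, 0.84 with induced shLSD1 and -0.49 with induced shG9a. Over all genes tested the medians were -0.21, -0.01, -0.02, 0.13 and 0.18. These medians rest on 3 to 5 members and leave out those below the filter. Compared without doxycycline, the shG9a and shLSD1 lines differed in 0 of 3 members tested, where 1.36% of 12449 genes were called higher and 2.16% lower in the shG9a line. The exact binomial p was also above 0.05 in all 3 genes, with ratios of 0.943 for KLK5, 0.968 for KLK6 and 0.925 for KLK10. The opposite values of KLK6 after doxycycline therefore started from levels that these reads did not separate.

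**Figure D3:**
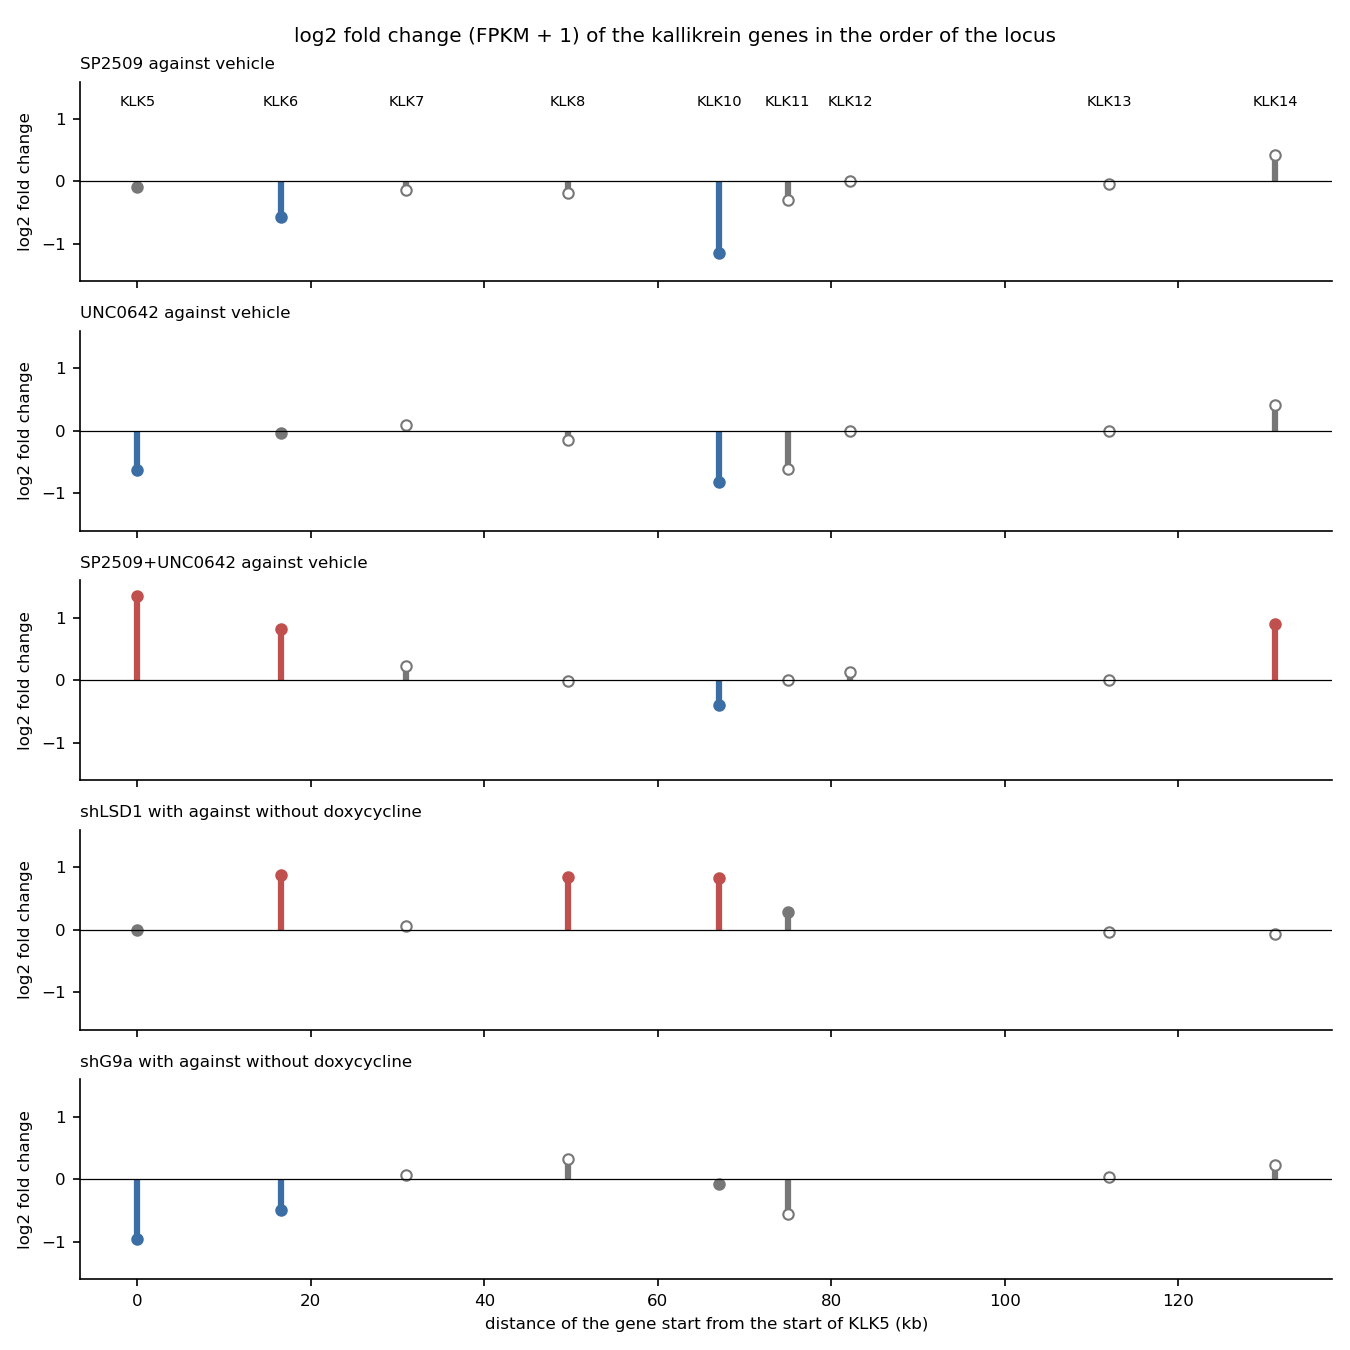
Log2 fold change of each member against its distance in kb from the start of KLK5, for the 5 comparisons, with filled points for genes at 1 FPKM or more in at least 1 of the 2 libraries and open points for genes below it. Called genes are red (higher) or blue (lower), and in the combination panel KLK5 at 1.35 and KLK10 at -0.39 lie in the same stretch of chromosome on opposite sides of 0.

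Neighbours in the cluster did not share one pattern. With both inhibitors KLK5 and KLK6 were both called higher, and KLK10 was called lower. KLK6 starts 16.6 kb and KLK10 67.1 kb from the start of KLK5. In the shLSD1 line KLK6, KLK8 and KLK10 were called higher, and KLK5, at the end of the stretch that holds the members, had a log2 fold change of -0.01. Among 15379 genes ranked by Euclidean distance over the 5 log2 fold changes, the gene nearest to KLK5 was PEAR1 at a distance of 0.45, and the closest member, KLK6, ranked 636. The gene nearest to KLK6 was AC007387.1 at 0.36, with KLK11 as the closest member at rank 1362. The gene nearest to KLK10 was SH2D4A at 0.21, and its closest member was KLK11 at rank 1928. The 5 comparisons are few values and 3 of them share vehicle, so these distances describe the libraries. Members are few among the genes ranked, so a nearest gene from outside the family was likely from the start. No reference for the ranks was computed, and they do not show how alike or unlike the members are. KLK11 passed the filter with induced shLSD1 alone, and the pseudocount shrinks the log2 fold changes of a gene at such low levels. The part of this in its ranks was not tested.

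Of the other tissue kallikreins KLK1, KLK2, KLK3, KLK4, KLK9 and KLK15, 3 were listed in each table. KLK1 was tested once, in the shG9a line, at 1.07 FPKM without and 0.947 FPKM with doxycycline, and was not called. KLK4 had 0 reads in vehicle, SP2509 and UNC0642 and 13 reads (0.398 FPKM) with both inhibitors, a ratio of 4.02 if vehicle is set at 3 reads. Within 250 kb of the cluster between 4 and 6 of 26 other genes were tested in each comparison. Of these, 1 was called higher and 2 lower with SP2509, 1 and 1 with UNC0642, 2 and 1 with both, 0 and 1 with induced shLSD1, and 2 and 1 with induced shG9a, beside the shares of all genes given above. They were CTU1, C19orf48, VSIG10L and CLEC11A. The flanking gene called in all 5 comparisons was CTU1, whose log2 fold change was 0.40 with both inhibitors and -0.65 with induced shLSD1, where KLK6 was higher in both.

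Inhibitors of serine proteases were 11 genes, of which 5 were tested with each inhibitor alone and 6 in each of the other comparisons. With both inhibitors 5 of 6 were called higher and 1 lower (median log2 fold change 1.01, against -0.02 over all genes), where 29.0% of all genes were called higher and 29.1% lower. The 6 include A2M, which passed the filter through the combination library alone. PI3, which encodes the elastase inhibitor elafin, stood at 3.32 FPKM in vehicle, 4.77 with SP2509, 13.2 with UNC0642 and 32.9 with both, and at 3.03 and 29.1 FPKM in the shLSD1 line. SLPI, the secretory leukocyte protease inhibitor, stood at 43.2, 77.8, 53.0 and 194 FPKM in the same 4 inhibitor libraries, and at 126 and 213 FPKM in the shLSD1 line. Both genes were called higher with both inhibitors and with induced shLSD1, the libraries in which KLK6 was also called higher. SLPI was called higher with SP2509 too, where KLK6 was called lower, and PI3 with UNC0642, where KLK6 was not called. In the shG9a line SLPI stood at 125 and 44.1 FPKM and was called lower, as KLK5 and KLK6 were.

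SPINK5, the gene of the kallikrein inhibitor LEKTI, had 2.32 FPKM in vehicle, 1.31 with SP2509, 1.57 with UNC0642 and 0.446 with both, on 159, 102, 123 and 33 reads. It was called lower with SP2509 (log2 fold change -0.52) and with both (-1.20), so in the combination library the level of SPINK5 was lower while those of KLK5 and KLK6 were higher. In the knockdown lines SPINK5 was not called, at log2 fold changes of 0.13 and 0.12. SPINT1 and SPINT2, membrane-bound inhibitors of matriptase, were called higher with both inhibitors (28.5 to 57.7 FPKM and 39.1 to 76.8 FPKM). A2M, a broad protease trap, had 0 reads in vehicle and 111 reads with both, a ratio of 34.3 if vehicle is set at 3 reads. The other protease inhibitor calls, beside the shares of all genes called in each comparison as given above, were 1 higher and 1 lower of 5 with SP2509, 1 and 0 of 5 with UNC0642, 2 and 0 of 6 with induced shLSD1, and 0 and 3 of 6 with induced shG9a, where the third was SERPINA1 beside SLPI and SPINT2.

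Of 10 other serine proteases of stratified epithelia 6 were tested in each comparison. The counts called higher and lower were 2 and 1 with SP2509, 3 and 1 with UNC0642, 5 and 0 with both, 2 and 0 with induced shLSD1, and 0 and 2 with induced shG9a. Over all genes the shares called higher and lower were 18.2% and 37.5%, 15.8% and 14.0%, 29.0% and 29.1%, 22.7% and 10.4%, and 30.0% and 15.8% in the same order. PRSS8, or prostasin, the partner of matriptase, had 17.3 FPKM in vehicle, 7.97 with SP2509, 11.8 with UNC0642 and 27.9 with both, and 29.8 and 44.9 FPKM in the shLSD1 line. It was called lower with each inhibitor alone and higher with both and with induced shLSD1. ST14, which encodes matriptase, was called higher with UNC0642 (23.2 FPKM) and with both (23.5 FPKM) against 16.5 FPKM in vehicle. PLAU, the urokinase gene, had 19.8, 72.6, 36.3 and 52.1 FPKM in the inhibitor libraries, higher in all 3 comparisons, and 43.2 and 19.9 FPKM in the shG9a line, where it was called lower. TMPRSS4, a membrane-anchored protease, was called higher with UNC0642 (log2 fold change 0.90) and lower with induced shG9a (-1.23). TMPRSS11E was called higher with SP2509 (1.01) and with both (1.09), and TMPRSS13 with both (0.59) and with induced shLSD1 (0.66).

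The list of substrates and receptors held 10 genes, and 5 or 6 were tested in a comparison. F2RL1, the gene of PAR2, was called higher in all 5 comparisons. It stood at 12.7 FPKM in vehicle, 22.5 with SP2509, 20.1 with UNC0642 and 47.2 with both, at 10.5 and 21.9 FPKM in the shLSD1 line, and at 10.3 and 21.5 FPKM in the shG9a line. In the combination library the receptor and the kallikreins KLK5 and KLK6 were called higher, whereas in the induced shG9a library the receptor was called higher and KLK5 and KLK6 lower. SCNN1A, an epithelial sodium channel subunit, was called lower with SP2509 and with both (24.1 to 15.5 and to 9.81 FPKM) and higher with induced shLSD1 (40.2 to 92.7 FPKM).

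Cytokine genes of the list differed between the tables. IL1B, encoding interleukin-1 beta, stood at 8.0 FPKM in vehicle and 224, 70.5 and 65.2 FPKM with SP2509, UNC0642 and both. In the shLSD1 line it had 20.5 and 2.53 FPKM, and in the shG9a line 17.0 and 0.224 FPKM. IL36G, a further interleukin-1 family member, had log2 fold changes of 2.15, 2.68 and 3.56 with the inhibitors and -0.56 and -2.16 in the knockdown lines. All 5 were called for both genes, higher with the inhibitors and lower with knockdown. F2R, the gene of the thrombin receptor PAR1, was called higher in the 3 inhibitor comparisons and with induced shG9a, and CAMP, the cathelicidin gene cut by kallikreins, with induced shLSD1 (4 and 22 reads). The corneodesmosome substrates CDSN, DSG1 and DSC1 were not tested in any comparison. In all, the list gave 4 higher and 1 lower of 6 with SP2509, 4 and 0 of 6 with UNC0642, 4 and 1 of 6 with both, 3 and 2 of 6 with induced shLSD1, and 2 and 2 of 5 with induced shG9a, beside the same shares over all genes. CAMP in the shLSD1 line passed the filter through the induced library alone.

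**Figure D4:**
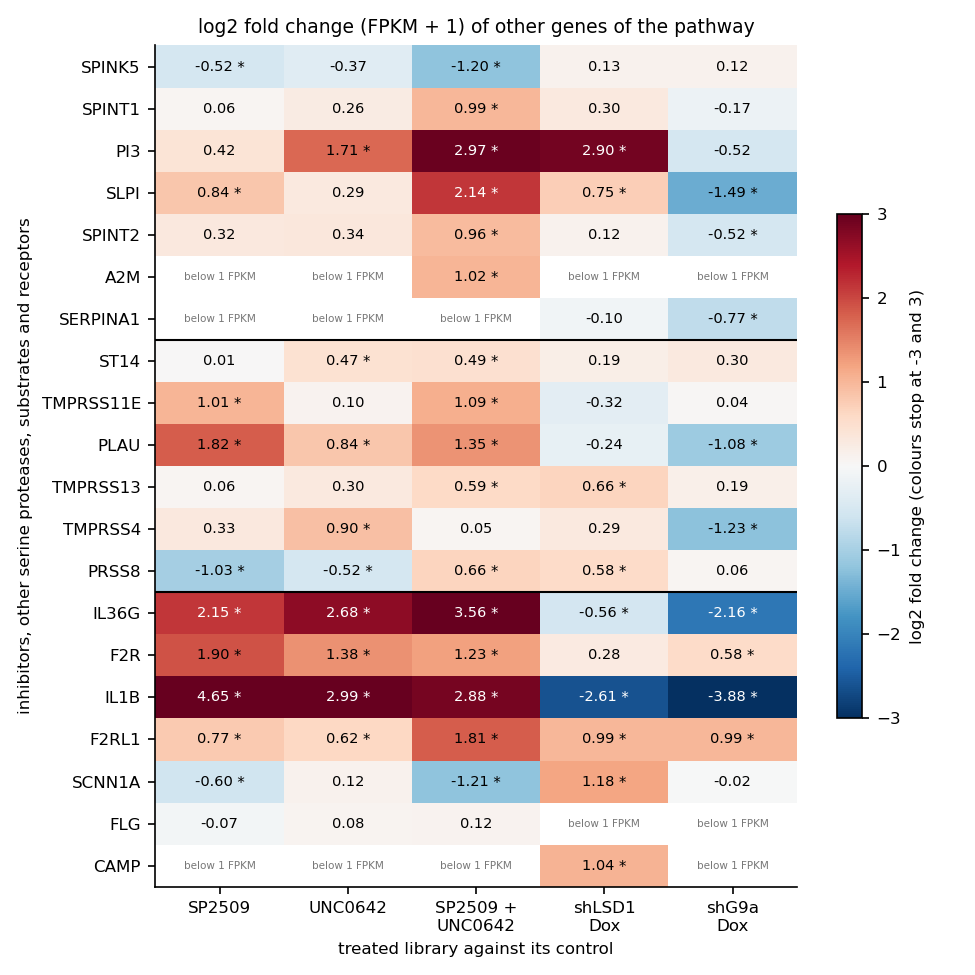
Log2 fold change of the protease inhibitors, other serine proteases, and substrates and receptors in the 5 comparisons. An asterisk marks a call, and "below 1 FPKM" marks a gene that was not tested. F2RL1 is positive in all 5 columns, between 0.62 and 1.81, while IL1B runs from -3.88 with induced shG9a to 4.65 with SP2509.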

How the data were processed

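RNA-seq values were taken as deposited. The authors removed low-quality and adapter reads and aligned what remained to GRCh38.87. FPKM values per gene were deposited by the authors in 2 tables, for the inhibitors (31582 genes) and the knockdowns (28942 genes). The aligner, the counting tool and the strand setting are not given in the sources used here. The tables were normalized separately, and comparisons were made within a table. Each library is 1 sample of its condition, so there is no spread between replicates.

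Library totals were estimated from genes with 1 exon, in which FPKM falls on steps of whole reads. The length of each other gene was chosen so that all its values were whole reads, and the Gencode release 44 length was taken where it was a multiple of up to 4 of the smallest fit. The reads summed to between 99.59% and 99.78% of the totals, and 1 gene per table had no whole reads. In simulated data for SP2509 against vehicle, the steps gave exact reads for 97.9% of 29730 genes. The test called 197 of 200 changed genes in their direction there, and it called 109 of 12793 unchanged genes. With no replicate, the spread between replicates could not be put into the simulation. Its figures describe the calculation only, and are not the power or the error rate of calls between the real libraries.

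Fold changes were log2((treated + 1)/(control + 1)) of FPKM. Reads of 2 libraries were compared by two-sided exact binomial tests given their totals, with exact Poisson intervals for levels and exact conditional intervals for ratios, at 95%. All genes with at least 1 FPKM in 1 of 2 libraries were tested, without adjustment of p, as the study's thresholds are a p under 0.05 and a fold of 1.3. All members are named, and of other lists the genes called in at least 1 comparison, up to 6 a list by the largest log2 fold change. SERPINA1, the flanking gene CTU1 and the nearest genes by distance are named beside their counts or ranks. The members and lists were chosen with earlier results of these data known. Promoter windows came from RefSeq, and protein features were not analysed here. Alternatives were other pseudocounts (0.1 and 0.01), thresholds, filters and gene lengths. Python 3.11.15, scipy 1.17.1 and pandas 2.3.3 were used.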

Additional observations from a re-analysis of the deposited data

Results flagged for a closer look

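KLK6 was called in opposite directions by doxycycline in the 2 knockdown lines. Its log2 fold change was 0.88 in the shLSD1 line and -0.49 in the shG9a line, with 285 and 546 reads in the former and 257 and 182 in the latter. With 1 library per arm the difference between the lines was not tested. Of 12325 genes tested in both lines, 232 (1.88%) were called in opposite directions, and 177 (1.44%) were higher in the shLSD1 line and lower in the shG9a line.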

How the results depend on the processing

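Each condition was 1 library, so p and intervals cover counting error only. Of 94 counts of members called higher or lower under the alternatives, 87 stayed within the set margin. These counts are small and can move little. Under the other pseudocounts, centring and controls, no log2 fold change of a called member changed sign or lost its call. KLK5, not called, went from -0.09 to 0.01 with SP2509 when centred on the median and from -0.01 to 0.03 with induced shLSD1 against the mean of both uninduced lines. Without a pseudocount KLK14 with both went from 0.90 to 2.54 and KLK8 with induced shLSD1 from 0.84 to 2.34. The 7 results outside the margin were counts of calls under stricter thresholds. With a fold of at least 2, members called lower fell from 2 to 1 with SP2509, from 2 to 0 with UNC0642, from 1 to 0 with both and from 2 to 0 with induced shG9a, and members called higher fell from 3 to 1 with both and from 3 to 0 with induced shLSD1. With at least 5 FPKM, members called lower with induced shG9a fell from 2 to 1. Within the margin, members called higher at 5 FPKM fell from 3 to 2 with both and with induced shLSD1. Fewer genes pass these by construction. With no filter, members called lower went from 2 to 3 with UNC0642 and with induced shG9a. No paired analysis was possible because no condition had a replicate. The comparison of the uninduced lines and the read ratios without pseudocount were added after seeing the data. Depth limits KLK7, KLK12 and KLK13, with at most 6 reads each as fitted.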
